A study of Mus musculus with 12 samples.

Results

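Stress fibres and the contractile apparatus of smooth muscle are built from a small set of proteins, and 10 of their genes were followed here: the actins Acta2 and Actg2, the transgelins Tagln and Tagln2, the calponins Cnn1 and Cnn2, the myosin light chain Myl9 and the tropomyosins Tpm1, Tpm2 and Tpm4. They were found in the count table by gene symbol alone, but the set was chosen with earlier results of these data known. All 10 were present among 56860 named genes, and all 10 passed the filter on low counts, which left 16600 genes to test.

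The counts came from RNA-seq of primary mouse oligodendrocytes (OLs), the myelin-forming cells of the brain, of the strain C57BL/6J. The study asked what changes when Egr2, a zinc finger transcription factor known for its part in Schwann cell myelination, is knocked down. In the siNC group 6 libraries came from OLs given a scrambled siRNA, and in the siEgr2 group 6 libraries came from OLs given an siRNA against Egr2, all collected after 48 h. The source tissue is labelled medial prefrontal cortex, whereas the methods describe O4+ cells taken from the cortex of newborn pups. The reagent is called an siRNA in the labels and, in one passage of the methods, an interference plasmid. Nothing used here says whether the 6 libraries of a group came from separate cultures or litters, so the p-values measure the spread between these libraries, which may be technical.

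Actin filaments bundled with myosin form stress fibres, which pull on adhesions and give a cell tension. Tropomyosins lie along the filament, calponins and transgelins bind and stabilize it, and regulatory light chains such as the Myl9 product switch the myosin motor on when phosphorylated. Many of these genes are transcribed by serum response factor (SRF), which binds a DNA element called the CArG box together with myocardin family cofactors that sense free actin monomers. In the brain, the smooth muscle members of the set are best known from the mural cells of vessels. OLs assemble actin to extend processes and later disassemble it while the myelin sheath spreads and compacts.

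Because the CArG box is the element that links the set to SRF, and because Egr2 is the targeted factor, the 250 bases before the RefSeq start of each gene (assembly GRCm38.p6) were searched on both strands for the CArG box, for a CArG box in which 1 core base is C or G, for the EGR family motif GCGNGGGCG and for TATAAA. The promoter table held 8 of the 10 genes, without Tagln and Actg2. A full CArG box occurred in the windows of Myl9 and Cnn2, and in 1.47% of all 32851 windows of that length. Myl9 and Acta2 held the box with 1 altered core base, which 7.24% of all windows held. Cnn2 and Tpm4 held the EGR motif, found in 4.70% of all windows. TATAAA occurred in none of the 8 windows, and in 12.4% of all windows. The stretches with these matches are printed 5′ to 3′ on the strand of the gene, with the match in capitals. A match is a description of the letters, not a measured binding site. The full box of Myl9 lies 161 bases before the start (chr2:156775278-156775337, plus strand) and the altered box 99 bases before it (chr2:156775340-156775399, plus strand).
Myl9, full box: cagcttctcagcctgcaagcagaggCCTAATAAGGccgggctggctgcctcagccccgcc
Myl9, altered box: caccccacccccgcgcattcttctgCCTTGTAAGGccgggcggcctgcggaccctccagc

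In Cnn2 a full CArG box and an EGR motif stand in the same stretch, 56 and 20 bases before the start (chr10:79988519-79988599, plus strand). Its last 16 bases lie in the first exon of the GENCODE transcript Cnn2-201.
Cnn2, full box and EGR motif: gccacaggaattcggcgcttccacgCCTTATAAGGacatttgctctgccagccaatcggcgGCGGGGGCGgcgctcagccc

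In Tpm4 the EGR motif lies 52 bases before the start (chr8:72135211-72135269, plus strand), and 11 bases of the stretch are in an exon of the GENCODE transcript Tpm4-201.
Tpm4, EGR motif: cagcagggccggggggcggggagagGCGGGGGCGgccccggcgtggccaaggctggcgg

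In Acta2 the altered box occurs 84 bases before the RefSeq start (chr19:34255438-34255467, minus strand) and 34 bases before it (chr19:34255388-34255417, minus strand). GENCODE starts Acta2-201 farther upstream, so that both stretches are in the first exon of that model.
Acta2, distal altered box: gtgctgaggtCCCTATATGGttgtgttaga
Acta2, proximal altered box: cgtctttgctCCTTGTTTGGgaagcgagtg

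Libraries of the groups differed in depth and in ribosomal RNA. Total counts ran from 28682946 to 39383014 in the siNC group and from 8034251 to 16683677 in the siEgr2 group. The 18S ribosomal RNA gene Rn18s-rs5 took 0.142% to 1.06% of the counts in siNC libraries and 10.5% to 16.5% in siEgr2 libraries, and 8 of 8 tested structural RNA genes rose, so that depth, ribosomal share and siRNA cannot be told apart in this design. Levels are given as CPM, the counts of a gene scaled to a common library size, with totals adjusted by the trimmed mean of M values (TMM). Egr2 itself had 5.35 ± 1.27 CPM (SD, n = 6) in siNC and 3.77 ± 1.01 CPM (SD, n = 6) in siEgr2 libraries. Its log2 fold change of -0.51 (SE 0.207) had an adjusted p of 0.0981 by the edgeR quasi-likelihood test, and the ranges of the groups overlapped, so the knockdown did not pass the test at the RNA level.

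A gene was called when its Benjamini-Hochberg adjusted p over all tested genes was under 0.05 and its log2 fold change was over 0.5 in size. Acta2, Tagln and Cnn1 fell in siEgr2 OLs, which is 3 of the 10 genes, beside 5.08% of all tested genes that were called lower. The set was chosen with earlier results of these data known, so such shares are only a description. By edgeR 0 of the 10 were called higher, beside 2.63% of all tested genes, and DESeq2 and limma-voom also called 0 higher. At an unadjusted edgeR p under 0.05, 1 of the 10 genes, Tpm1, was higher and 7 were lower. The share of all tested genes at that threshold is not given here, so these counts have no background to be read against. By adjusted p alone 5 of the 10 genes were lower, Cnn2 and Myl9 in addition, beside 11.3% of all tested genes. All 6 siEgr2 libraries lay below all 6 siNC libraries for 4 of the 10 genes (Acta2, Tagln, Cnn1 and Myl9), beside 7.00% of all tested genes. The median log2 fold change was -0.42 over the 10 genes and 0.00 over all tested genes, of which 844 were called lower and 437 higher. With libraries scaled by their totals only, 1737 genes were called lower and 237 higher, the median of all genes moved to -0.18, and 5 of the 10 genes were called lower (Myl9 and Cnn2 added). In bulk RNA, fewer cells of a type and less RNA per cell cannot be told apart.

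**Figure D1:**
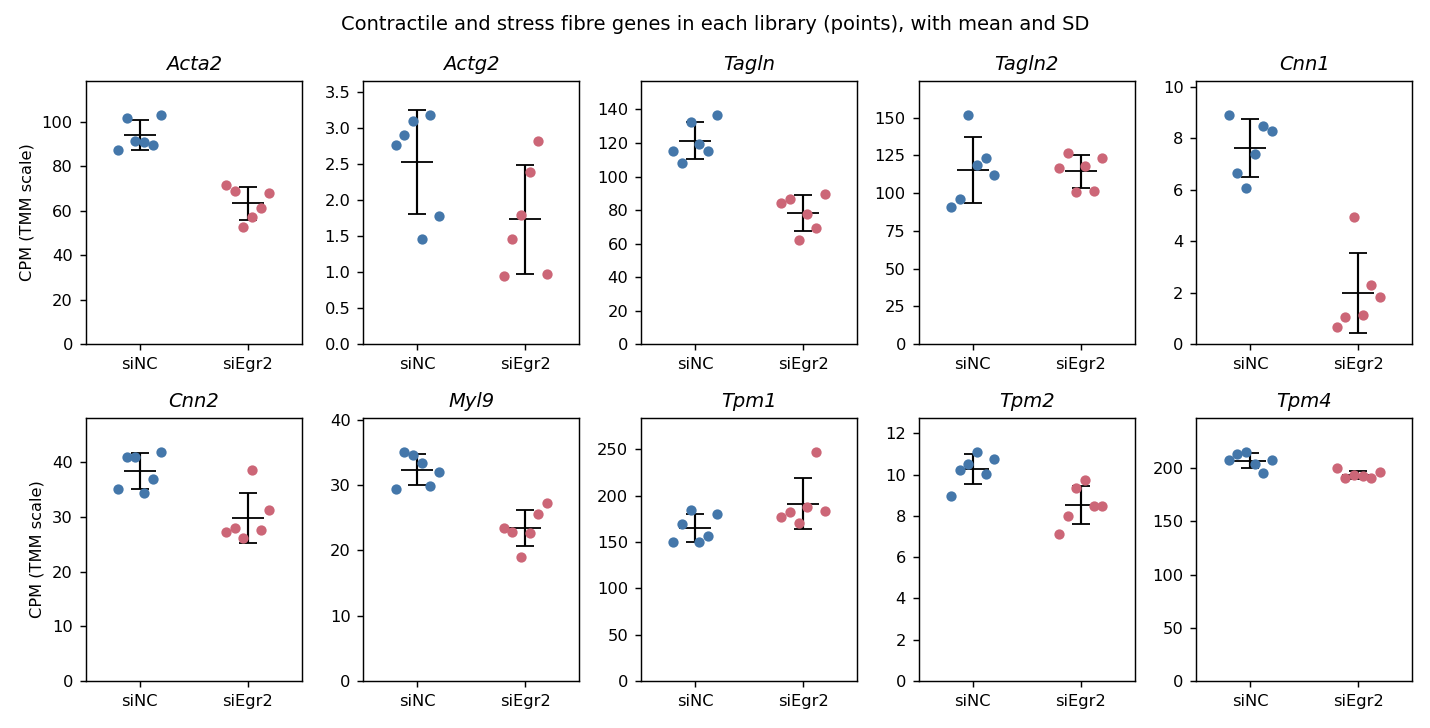
CPM on the TMM scale (vertical axes, each from 0) of the 10 genes in each of 6 siNC and 6 siEgr2 libraries (points), with the group mean and SD as bars. The groups do not overlap for Acta2, Tagln, Cnn1 and Myl9. A different siEgr2 library stands high for Cnn1 (replicate 3, 4.94 CPM), for Cnn2 (replicate 4, 38.6 CPM) and for Tpm1 (replicate 5, 247 CPM).

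Acta2 encodes smooth muscle alpha actin (GRCm38 chr19:34241090-34255590, minus strand). Its lowest, median and highest levels were 87.4, 91.2 and 103 CPM in the siNC group and 52.6, 64.8 and 71.9 CPM in the siEgr2 group. Every siEgr2 library lay below every siNC library. Acta2 fell by 0.57 on the log2 scale (SE 0.0745, 95% interval -0.73 to -0.41), from 94.1 ± 6.70 to 63.4 ± 7.56 CPM (SD, n = 6 each), with an adjusted p of 4.46e-05 by edgeR. The siEgr2 mean was 67.4% of the siNC mean. At least 480 counts stood behind the value in each library.

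Actg2, the gamma actin of visceral smooth muscle (chr6:83512905-83536265, minus strand), had the lowest level of the set in siNC libraries, and 10 to 97 counts a library over both groups. It measured 1.46, 2.83 and 3.17 CPM in siNC libraries (lowest, median, highest) and 0.941, 1.63 and 2.82 CPM in siEgr2 libraries, with overlapping ranges. Its log2 fold change was -0.56, close to that of Acta2, but the 95% interval ran from -1.20 to 0.07 and the adjusted p was 0.215 by edgeR.

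The transgelins showed unequal values. Tagln, also called SM22 alpha, is an actin cross-linking protein of smooth muscle (chr9:45929619-45936058, minus strand). It measured 108, 118 and 137 CPM in siNC libraries (lowest, median, highest) and 62.5, 80.9 and 89.4 CPM in siEgr2 libraries, with no overlap. Tagln fell by 0.63 on the log2 scale (SE 0.0852, 95% interval -0.81 to -0.45, adjusted p = 7.77e-05 by edgeR), to 64.5% of the siNC mean. Tagln2, the broadly expressed member of the family (chr1:172500047-172507380, plus strand), measured 90.6, 115 and 152 CPM in siNC libraries and 101, 117 and 127 CPM in siEgr2 libraries. The siEgr2 range of Tagln2 lay inside the siNC range. Its log2 fold change was -0.01 (95% interval -0.25 to 0.24, adjusted p = 0.970 by edgeR), an interval that leaves out a change as large as that of Tagln. The Tagln share of transgelin RNA (Tagln, Tagln2 and Tagln3) per length had a median of 37.8% in siNC and 31.4% in siEgr2 libraries, while that of Tagln2 was 34.5% and 43.2%. The ratio of Tagln to Tagln2, per length, ran from 0.917 to 1.33 in siNC libraries and from 0.648 to 0.760 in siEgr2 libraries. Within each library, then, Tagln was lower relative to Tagln2 in every siEgr2 library than in any siNC library, on a ratio that scaling between libraries does not touch.

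Read assignment sets a limit on Tagln. Of its exon bases 1241 (62.4%) overlap Gm48529, a gene on the opposite strand (chr9:45930112-45933738, plus strand), and 108 (5.43%) overlap Pcsk7, also on the opposite strand. Whether the counting used strand is not given in the sources used here. Gm48529 held 42 to 242 counts in siNC and 34 to 87 in siEgr2 libraries, against 3528 to 5699 and 540 to 1249 for Tagln, and its log2 fold change was 0.37 (adjusted p = 0.442 by edgeR). For the other genes, the share of 50-base exon windows found in another gene was 15.7% for Tpm4 (mostly the pseudogene Gm7809), 0.565% for Tagln2, 0.326% for Acta2 (Actg1 and pseudogenes) and 0 for Actg2, Cnn1, Cnn2, Myl9, Tpm1 and Tpm2.

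Of the calponins, which bind actin and hold back myosin ATPase, Cnn1 is the smooth muscle form (chr9:22099216-22109630, plus strand). Cnn1 had the largest log2 fold change of the 10 genes. Its lowest, median and highest levels were 6.06, 7.85 and 8.89 CPM in siNC libraries and 0.672, 1.49 and 4.94 CPM in siEgr2 libraries, without overlap. Cnn1 fell by 1.92 on the log2 scale (SE 0.364, 95% interval -2.70 to -1.13, adjusted p = 0.00187 by edgeR), to 26.1% of the siNC mean. The siEgr2 libraries rested on 10 to 80 counts, against 188 to 346 in siNC libraries. The library with 80 counts, siEgr2 replicate 3, stood above the other siEgr2 libraries, which reached at most 2.31 CPM, and without it the log2 fold change was -2.52 (adjusted p = 6.64e-06 by edgeR).

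Cnn2, the form found in many non-muscle cells (chr10:79988584-79996062, plus strand), measured 34.3, 38.9 and 41.9 CPM in siNC libraries (lowest, median, highest) and 26.2, 27.8 and 38.6 CPM in siEgr2 libraries. Of the siEgr2 libraries 5 lay below the siNC range and replicate 4 lay within it. The log2 fold change of Cnn2 was -0.36 (SE 0.0923, adjusted p = 0.0104 by edgeR), past the p threshold and under that for size. Cnn3, the paralog that held a median of 85.1% of calponin RNA per length in siNC and 86.2% in siEgr2 libraries, had a log2 fold change of -0.37 (adjusted p = 1.13e-05 by edgeR). The Cnn1 share of calponin RNA had a median of 2.29% in siNC libraries and 0.553% in siEgr2 libraries, with ranges of 1.80% to 2.65% and 0.261% to 2.06%.

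Myl9, the regulatory light chain of smooth muscle and non-muscle myosin (chr2:156775420-156781658, plus strand), measured 29.4, 32.6 and 35.0 CPM in siNC libraries (lowest, median, highest) and 19.0, 23.1 and 27.2 CPM in siEgr2 libraries. The groups did not overlap. The log2 fold change of Myl9 was -0.47 (SE 0.0841, 95% interval -0.65 to -0.29, adjusted p = 7.69e-04 by edgeR), which passed the p threshold and lay just under that for size.

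The tropomyosins, which set which proteins reach the filament, held 3 of the genes. None of these 3 was called by edgeR, DESeq2 or limma-voom, and all 3 had an unadjusted edgeR p under 0.05. Tpm1 (chr9:67022590-67049406, minus strand) was the only one of the 10 genes with a higher mean in siEgr2 libraries. It measured 150, 163 and 184 CPM in siNC libraries (lowest, median, highest) and 171, 183 and 247 CPM in siEgr2 libraries, with overlap. Its log2 fold change was 0.22 (adjusted p = 0.0980 by edgeR), and 0.13 (adjusted p = 0.153) without siEgr2 replicate 5, the library at 247 CPM.

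Tpm2 (chr4:43514711-43523765, minus strand), the form typical of muscle and fibroblasts, measured 8.95, 10.4 and 11.1 CPM in siNC and 7.13, 8.47 and 9.72 CPM in siEgr2 libraries, again lowest, median and highest. Its log2 fold change was -0.27 (adjusted p = 0.0797 by edgeR). Tpm4 (chr8:72134975-72153142, plus strand), a form of non-muscle stress fibres, measured 195, 208 and 215 CPM in siNC and 190.5, 193 and 200.1 CPM in siEgr2 libraries. Its log2 fold change of -0.10 (SE 0.0338, 95% interval -0.17 to -0.02, adjusted p = 0.0590 by edgeR) was the most narrowly bounded of the set. Per length, the ratio of Tpm1 to Tpm4 ran from 0.245 to 0.295 in siNC libraries and from 0.300 to 0.441 in siEgr2 libraries, so that the ranges of the ratio did not overlap although neither gene passed the test.

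**Figure D2:**
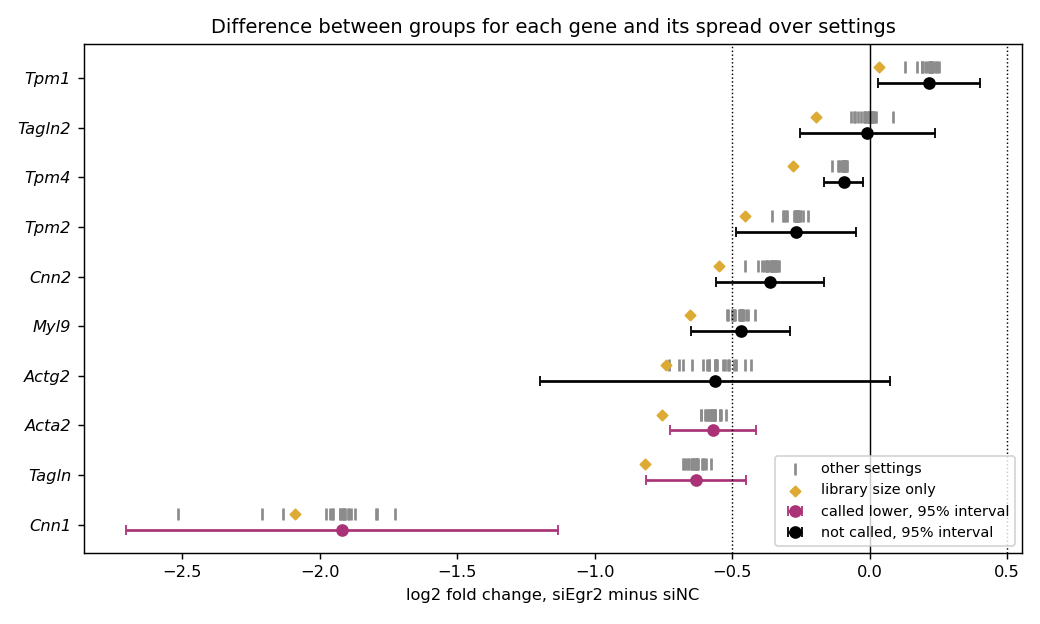
Log2 fold change (horizontal axis, siEgr2 minus siNC) of each of the 10 genes with its 95% interval, in colour where called lower, with the values under other settings as ticks and under scaling by library total alone as diamonds. Dotted lines mark the threshold of 0.5; Cnn1 (-1.92), Tagln (-0.63) and Acta2 (-0.57) were called, and Tpm1 (0.22), which was not called, had the highest value.

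The levels can be ranked between genes only per length. As RPKM, counts divided by library size and by exon length, over 6 siNC libraries, the order was Tpm4 (94.0), Tagln (61.0), Tagln2 (55.4), Acta2 (42.8), Myl9 (27.8), Tpm1 (25.4), Cnn2 (15.6), Tpm2 (3.53), Cnn1 (2.79) and Actg2 (1.62). Ranges overlapped, so that neighbours did not differ beyond their spread, between Tagln and Tagln2, Tagln2 and Acta2, Myl9 and Tpm1, and Tpm2 and Cnn1. In siEgr2 libraries Tagln2 (55.0 RPKM) stood above Tagln (39.4 RPKM), while the ranges of Tpm1 (29.5 RPKM, 26.4 to 38.1) and Acta2 (28.9 RPKM, 24.0 to 32.7) overlapped and Myl9 was at 20.2 RPKM. The ubiquitous cytoplasmic actins were far above Acta2 in siNC libraries, at 544 RPKM for Actb and 577 RPKM for Actg1. Acta2 held a median of 3.65% of the RNA of the 6 actin genes, per length, in siNC libraries (3.36% to 4.12%) and 2.67% in siEgr2 libraries (2.28% to 3.10%). The ratio of Acta2 to Actb ran from 0.0727 to 0.0922 and from 0.0475 to 0.0589, respectively. Actb itself, at 1457 ± 69.5 and 1456 ± 61.9 CPM (SD, n = 6), had a log2 fold change of 0.00 (adjusted p = 0.989 by edgeR). Acta2 was thus lower both in CPM and as a share of the actins.

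Library by library, with the group means removed, Acta2 was compared with each of the 9 other genes over 12 libraries, whose depth and ribosomal share also varied within each group. The highest correlations were with Tagln (Pearson r = 0.669, Spearman's coefficient = 0.538) and Myl9 (r = 0.612, Spearman's 0.531), and the lowest was with Cnn1 (r = -0.656, Spearman's -0.538). In a permutation test within groups, added after the data were seen, the raw p were 0.0420, 0.0661 and 0.0631 for r and 0.117, 0.115 and 0.144 for Spearman's coefficient, and adjusted over the 9 relations they were 0.198 for each r and 0.332 for each Spearman's coefficient. Without the 2 libraries farthest from the median of Acta2, siEgr2 replicates 1 and 3, r was 0.443 for Tagln, 0.436 for Myl9 and -0.0977 for Cnn1, so that the last relation rested on those libraries. No relation between Acta2 and another of the 10 genes passed after adjustment. Among 12399 genes with enough reads, the 5 whose deviations were most like those of Acta2 by Pearson r were Kbtbd6 (0.912), Rps2 (0.912), Wdr46 (0.904), Gpx7 (0.882) and Osgin1 (0.865), given as a description chosen by rank. Tagln stood at rank 247 and Myl9 at rank 424.

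The wider actin machinery was followed in lists of the pathway. Of 8 tested paralogs of the 10 genes (Acta1 and Actc1 had too few counts), 4 were lower by adjusted p alone, beside 11.3% of all tested genes. All stayed under the size threshold, with a median log2 fold change of -0.17. Of 16 tested genes of smooth muscle contraction, 3 fell: Synpo2, an actin bundling protein of the Z-disc, from 18.2 ± 2.75 to 8.98 ± 0.769 CPM (SD, n = 6 each; log2 fold change -1.01, adjusted p = 7.70e-06 by edgeR), Mylk, the kinase that phosphorylates myosin light chains (-0.66, adjusted p = 0.00300), and the intermediate filament gene Synm (-0.53, adjusted p = 0.0213). Of all tested genes 5.08% were called lower. By adjusted p alone 6 of the 16 were lower, beside 11.3% of all tested genes, and 2 higher, beside 1423 of 16600. The median log2 fold change of the 16 was -0.28. Their most abundant gene, the actin and myosin binding caldesmon gene Cald1, had a log2 fold change of -0.24 (adjusted p = 0.00187). The smooth muscle myosin heavy chain Myh11 had too few counts to test, at a mean of 0.473 CPM in siNC and 0.465 CPM in siEgr2 libraries.

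Of 23 tested genes for stress fibre and crosslinking proteins 5 fell, beside 5.08% of all tested genes called lower. By adjusted p alone 16 were lower, beside 11.3% of all tested genes, and 3 higher, beside 1423 of 16600. The median log2 fold change of the list was -0.35. Flnc, a filamin that crosslinks actin, went from 116 ± 18.4 to 66.1 ± 3.10 CPM (SD, n = 6 each; log2 fold change -0.81, adjusted p = 7.51e-06 by edgeR). Palld, a scaffold of dense bodies, had a log2 fold change of -0.58 (adjusted p = 8.99e-07), Actn1, the crosslinker alpha-actinin, of -0.53 (adjusted p = 1.93e-06), and Trip6, a zyxin family adaptor, of -0.53 (adjusted p = 0.00278). The fifth was Pdlim1 (-0.65, adjusted p = 0.00673), named after its value was seen. Fscn1, the fascin of filopodia and the most abundant gene of the list, had a log2 fold change of -0.04 (adjusted p = 0.422).

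Among 6 tested genes for SRF and its cofactors (Myocd had too few counts), 1 fell, beside 5.08% of all tested genes called lower. The gene that fell was Mrtfb, a myocardin related cofactor of SRF. Mrtfb ranged from 22.8 to 32.1 CPM in siNC and from 13.7 to 16.8 CPM in siEgr2 libraries (log2 fold change -0.93, adjusted p = 1.95e-06 by edgeR). Named after their values were seen, Srf itself was at -0.13 (adjusted p = 0.290) and Mrtfa at -0.03 (adjusted p = 0.813). The most abundant gene of the list, Elk4, a ternary complex factor of SRF, was at 0.03 (adjusted p = 0.853). Tested were 17 target genes of SRF with its cofactors or of YAP, a list that also holds Myl9. Of these 3 fell, beside 5.08% of all tested genes called lower. By adjusted p alone 9 were lower, beside 11.3% of all tested genes, and 1 higher, beside 1423 of 16600. The median log2 fold change of the list was -0.33. Among those that fell were the matricellular gene Ccn1 (165 ± 13.0 to 106 ± 7.87 CPM, log2 fold change -0.64, adjusted p = 1.46e-06) and the focal adhesion adaptor gene Tgfb1i1 (-0.56, adjusted p = 0.00485).

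Of 18 tested genes for RhoA signalling and control of the myosin light chain, 2 fell, Mylk and Rnd3, beside 5.08% of all tested genes called lower. By adjusted p alone 6 of the 18 were lower, beside 11.3% of all tested genes, and 2 higher, beside 1423 of 16600. The median log2 fold change of the 18 was -0.07. Rnd3, which encodes a small GTPase known to oppose stress fibres, had a log2 fold change of -0.73 (adjusted p = 3.38e-06 by edgeR), a member whose known role runs against that of Mylk. The 17 genes of actin disassembly and monomer binding had a median log2 fold change of -0.02. By adjusted p alone 2 were lower, beside 11.3% of all tested genes, and 2 higher, beside 1423 of 16600. None passed the size threshold as well. The most abundant gene of this list, Cfl1, the filament severing cofilin, was at 0.01 (adjusted p = 0.826). The 20 genes of branched actin assembly had a median of 0.01. By adjusted p alone 4 were lower, beside 11.3% of all tested genes, and 2 higher, beside 1423 of 16600. Cyfip2 of the WAVE complex was at -0.01 (adjusted p = 0.894).

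**Figure D3:**
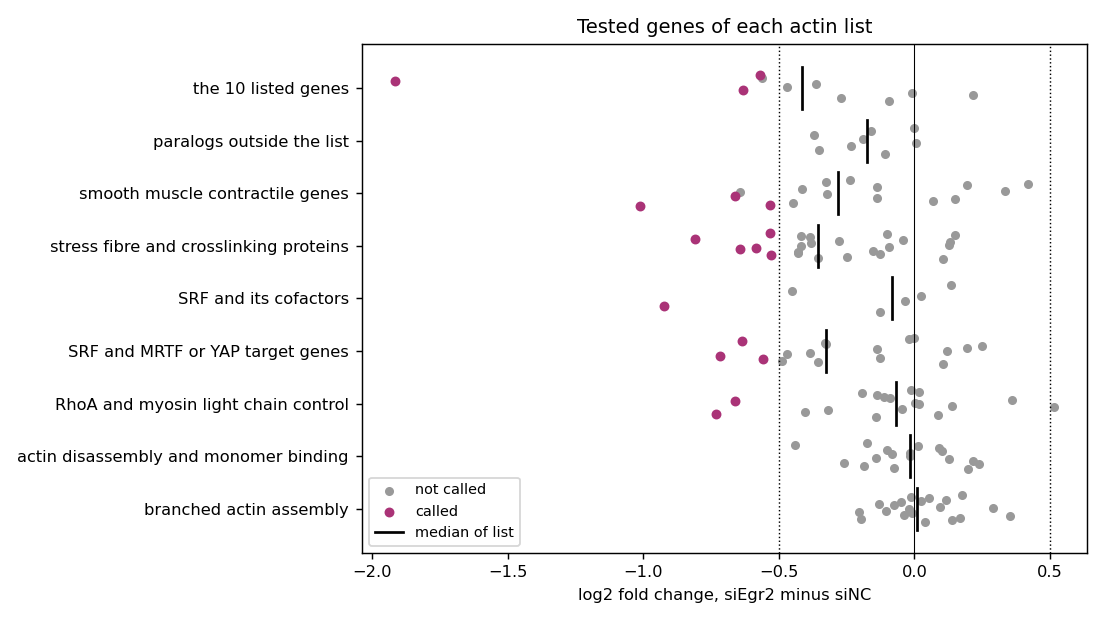
Log2 fold change (horizontal axis, siEgr2 minus siNC) of every tested gene in the set of 10 and in 8 lists of the pathway, with called genes in colour and a bar at the median of each list. Medians run from -0.42 for the 10 genes to 0.01 for branched actin assembly; a gene can stand in more than 1 list.

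The summed markers of mural cells, astrocytes, mature OLs and neurons were lower in every siEgr2 library than in any siNC library, and those of OL precursors were higher. Genes that define the labelled cell type were abundant: 9 tested markers of mature OLs summed to 7846 to 8911 CPM in siNC and 7326 to 7642 CPM in siEgr2 libraries, with no overlap. By adjusted p alone 4 of the 9 were lower, beside 11.3% of all tested genes. The myelin protein gene Mbp (log2 fold change -0.28, adjusted p = 2.28e-04 by edgeR) passed the p threshold and stayed under that for size. Smooth muscle cells and pericytes, which are known to express Acta2, Tagln and Cnn1, had 10 listed markers, of which 5 were tested. All 5 fell (Pdgfrb, Notch3, and, named after their values were seen, Rgs5, Vtn and Anpep), beside 5.08% of all tested genes called lower. Pdgfrb also stands in the list of fibroblast markers. Pdgfrb went from 49.3 to 33.5 CPM (log2 fold change -0.56, adjusted p = 5.62e-04 by edgeR) and Notch3 from 39.4 to 20.7 CPM (-0.93, adjusted p = 7.03e-07). The summed level of the 10 markers was 115 to 133 CPM in siNC and 61.8 to 85.8 CPM in siEgr2 libraries. The listed markers Myh11, Kcnj8, Abcc9 and Ndufa4l2 were too low to test, and Higd1b had no count in any library. Means in siNC and siEgr2 libraries were 0.473 and 0.465 CPM for Myh11, 0.226 and 0.259 for Kcnj8, 0.101 and 0.246 for Abcc9, and 0.120 and 0.1345 for Ndufa4l2. According to the methods, meninges and vessels were stripped off during dissection and the cells were then enriched on beads against O4. The share of mural cells left in the cultures was not measured. The part of such cells in the fall of Acta2, Tagln and Cnn1 was not tested.

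Of 7 astrocyte markers 5 fell, beside 5.08% of all tested genes called lower. The summed level of the 7 was 7996 to 8693 CPM in siNC and 5085 to 5766 CPM in siEgr2 libraries. Gfap, the astrocyte intermediate filament gene, had a log2 fold change of -0.56 (adjusted p = 2.25e-08 by edgeR), and the glutamate transporter gene Slc1a3 one of -0.85 (adjusted p = 4.66e-10). For Gfap the paper reports the other direction, a significant increase by qPCR in siEgr2 OLs. Of 6 markers of OL precursors 2 rose, beside 2.63% of all tested genes called higher. These were Pdgfra and Cspg4, both named after their values were seen. By adjusted p alone 4 of the 6 were higher, beside 1423 of all 16600 tested genes. The most abundant of the 6 markers, Ptprz1 (log2 fold change 0.15, adjusted p = 0.00822 by edgeR) and Gpr17 (0.03, adjusted p = 0.700), were not called. The summed level of the 6 was 2731 to 2931 CPM in siNC and 3272 to 3497 CPM in siEgr2 libraries. The 7 fibroblast markers, with overlapping sums of 833 to 1392 and 858 to 1056 CPM, held 1 call, again Pdgfrb, beside 5.08% of all tested genes called lower. The collagen genes Col1a1 (-0.16, adjusted p = 0.327) and Col1a2 (-0.27, adjusted p = 0.133) did not pass. The part of astrocytes in these values was not tested.

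Markers of vessels and immune cells were sparse. Endothelial markers summed to 25.9 to 35.0 CPM in siNC and 27.5 to 38.0 CPM in siEgr2 libraries. Of 3 tested, 1 fell, Flt1, named after its value was seen, beside 5.08% of all tested genes called lower. Kdr was at 0.13 and Cdh5 at 0.05 on the log2 scale, and Cldn5 had no count in any library. Microglial markers summed to 2.99 to 5.80 and 1.95 to 5.63 CPM with no count of Aif1. Neuronal markers summed to 129 to 144 and 112 to 125 CPM without overlap, with Tubb3 at -0.27 (adjusted p = 8.12e-04 by edgeR) and Syt1 at 0.31 (adjusted p = 0.0266). The 10 contractile and stress fibre genes together summed to 736 to 870 CPM in siNC and 642 to 736 CPM in siEgr2 libraries.

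**Figure D4:**
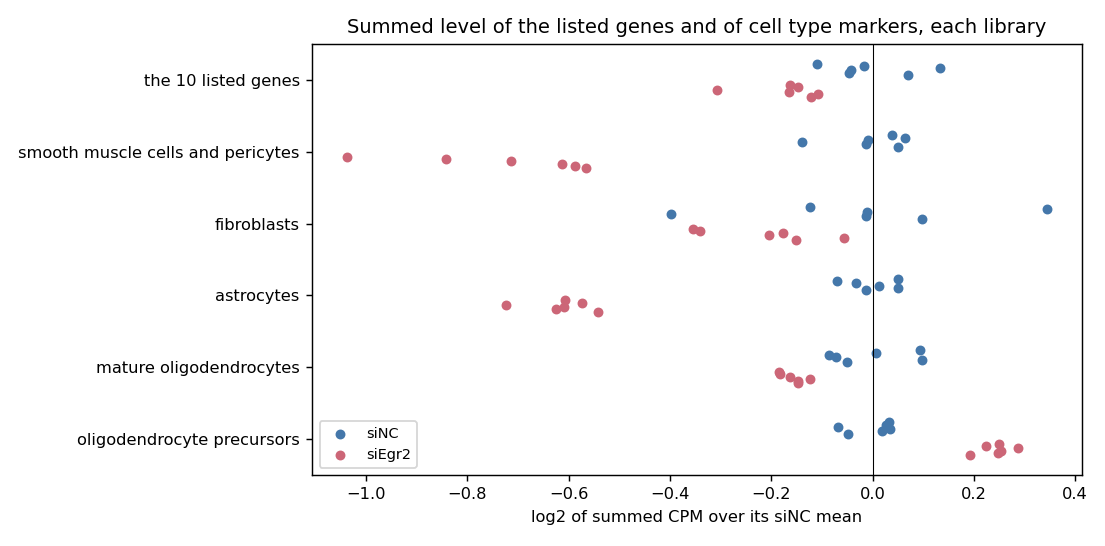
Summed CPM of the 10 contractile and stress fibre genes and of the markers of 5 cell types in each library, as log2 of its ratio to the siNC mean (horizontal axis); points are libraries, 6 in each group. Sums of mural, astrocyte and mature OL markers are lower in every siEgr2 library than in any siNC library (61.8 to 85.8 against 115 to 133 CPM for mural markers), precursor markers are higher, and fibroblast markers overlap.

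With every library thinned to the smallest total, and with structural RNA genes left out before scaling, Acta2, Tagln and Cnn1 were each called lower, with log2 fold changes of -0.60, -0.61 and -1.91 after thinning and -0.56, -0.62 and -1.91 without structural RNA.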

How the data were processed

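RNA-seq of 12 libraries (6 siNC, 6 siEgr2) was analysed from 1 table of raw read counts per gene, deposited by the authors. The submitters' processing notes name the build mm10; the aligner, the counter and the use of strand are not given in the sources used here. A row with no gene name (1 blank row) was left out. Groups were taken from the sample labels.

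Counts were filtered with filterByExpr, scaled by TMM and tested across 16600 genes with edgeR 4.0.16 (glmQLFit, robust, and glmQLFTest; R 4.3.3), with Benjamini-Hochberg adjustment over all of them. An adjusted p is from that fit unless its sentence names an alternative setting or the permutation test. A call needed both an adjusted p below 0.05 and a change of more than 0.5 on the log2 scale. Standard errors were derived from the F statistic. The fit was tested on simulated counts with 200 changed genes. DESeq2 1.42.0 and limma 3.58.1 (voom) served as alternatives. Correlations used log2(CPM + 0.5). Depth was 8034251 to 39383014 counts a library; intervals cover the spread between libraries.

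The 10 genes, and the lists of pathway and marker genes, were chosen with earlier results of these data known. Named were all 10 genes, up to 4 called genes with the smallest adjusted p and the most abundant gene of each pathway list, the 2 most abundant markers and any marker with no count of each cell type, the 5 genes most like Acta2, Egr2 and Rn18s-rs5, except that some named by this rule are not reported here. Paralogs and overlapping genes were named beside the member they concern; Pdgfra, Cspg4, Flt1, Srf, Mrtfa, Pdlim1, Rgs5, Vtn and Anpep are outside the rule and were named after their values were seen. Gene positions are from GENCODE M21 (GRCm38), and exon lengths are the union of exons. Promoter stretches are from RefSeq (GRCm38.p6).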

Additional observations from a re-analysis of the deposited data

Results flagged for a closer look

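In 104 groups of 6 values (the 10 genes, the named genes and library totals), the highest or lowest library was compared with the rest by Dixon's ratio, and 6 stood apart, where chance gives about 1 in 20, or 5.2. Among the 10 genes, Tpm1 in siEgr2 replicate 5 measured 247.1 CPM while the other siEgr2 libraries lay between 171 and 187.9 CPM. Among pathway genes, Fscn1 in siNC replicate 6 was at 1052 CPM (others 931.8 to 970.1), Rnd3 in siNC replicate 3 at 58.52 CPM (others 52.01 to 54.03) and Arhgap35 in siNC replicate 4 at 613.7 CPM (others 547.6 to 572.1). Among markers, Notch3 in siNC replicate 2 was at 32.19 CPM (others 38.97 to 42.98), still above every siEgr2 library. The total of siNC replicate 6 was 39383014 counts (others 28682946 to 32460116).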

How the results depend on the processing

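Acta2, Tagln and Cnn1 were called lower in each of the 22 alternatives (scaling, tool, filter, thinning, structural RNA, replicate number, 1 library left out); with a log2 fold change over 1 required, 1 gene, Cnn1, was. The count of the 10 genes called lower was 3, and 5 with scaling by totals only, 5 with no size threshold, 4 with no filter on low counts (Myl9 joined), and 3 to 4 with 1 library left out (Myl9 joined without siEgr2 replicate 6). Called higher were 0 in every one. Log2 fold changes ran from -0.75 to -0.52 for Acta2, -0.82 to -0.58 for Tagln, -2.52 to -1.73 for Cnn1 and 0.04 to 0.25 for Tpm1. Relative to the shift of all genes under scaling by totals, Acta2 was at -0.58, Tagln at -0.64 and Tpm1 at 0.21. Tagln2, near 0, turned to 0.011 by limma-voom, 0.0089 after thinning and 0.0070 with the replicate number as a block, and ran from -0.069 to 0.085 with 1 library left out; the cause was not tested. Egr2 passed only with scaling by totals (-0.70, adjusted p = 0.0144 by edgeR) and ran from -0.60 to -0.39 with 1 library left out. Over all genes, a log2 fold change over 1 left 196 lower and 177 higher, and no size threshold gave 1877 and 1423.

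Libraries with the same replicate number did not deviate together (correlations from -0.0388 to 0.0422), so that the numbers do not pair them. With the replicate number as a block, 3 of the 10 genes were called lower, and over all genes 775 were lower and 349 higher. The exact permutation test planned for genes under the filter, and its other pseudocount, were not run because all 10 genes passed.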
